A study of Arabidopsis thaliana with 20 samples.

Results

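Rosette leaves of Arabidopsis thaliana that had spent 7 h in darkness were compared with rosette leaves harvested in the light. The comparison rested on 4 of the series' 20 arrays, chosen by their titles, and covered all 22746 probe sets of the Affymetrix ATH1 array that are not manufacturer's controls. The sample labels call the tissue whole shoot and the design text rosette leaf, and shoots is used from here on. Plants of the accession Col-0, with no mutation or transgene named, had grown at 20 °C under 200 µmol m-2 s-1 of light in a 9 h photoperiod and carried 9 to 10 leaves. Darkened shoots (2 arrays) came from plants kept in air for 7 h in the dark chamber that was also used for flooding. Light shoots (2 arrays) came from plants of the growth chamber, harvested at 0 h, when the treatments began 2 h into the light period. Shoots after 24 h of darkness and roots under the same conditions, 2 arrays a group, are used below to show where the 7 h response of shoots differed. The 2 arrays of a group came from independent replicate experiments according to the submitters. Labelling used 500 ng of RNA a sample, and how many plants a sample pooled is not given in the sources used here. The series also holds 8 arrays of submerged plants, which entered the estimate of the spread and no comparison.

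The 7 h harvest fell at the end of the usual 9 h photoperiod and the light harvest 2 h after its start. The plants kept dark were watered every other day and those in the light daily. Darkness, the clock time of harvest, the chamber and the watering therefore cannot be told apart between the groups at 7 h. The 24 h dark harvest had the clock time of the light harvest, and its values are given beside those of genes that are known to follow the clock.

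A leaf in the light makes sugar, sends part of it to the rest of the plant and stores part of it as starch, which it breaks down in the following night. When sugar runs short, the kinase SnRK1 turns on genes that release energy from protein and lipid, and the carbon skeletons of branched-chain amino acids and lysine feed electrons to the mitochondrion through the electron-transfer flavoprotein. Light itself is read by phytochromes and cryptochromes, which stabilise the transcription factors HY5 and HYH and remove PIF factors, and flavonoid and chlorophyll genes are well known outputs of that pathway.

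Values are log2 expression values, so that a difference of 1 is a 2-fold change, and they compare a probe set between samples, not genes with each other. A probe set was called when its Benjamini-Hochberg adjusted p in a limma fit to all 20 arrays lay under 0.05. Changes are darkened minus light shoots unless stated, SE is the standard error of the difference, and the 2 values given for a group are its 2 arrays. Between darkened and light shoots 11130 of 22746 probe sets were called (48.9%), 5665 of them higher (24.9%) and 5465 lower (24.0%) in darkened shoots. Counted with 1 probe set for each of 13355 genes, 44.8% were called, 23.3% higher and 21.5% lower, and these shares are the background for every count of list genes below. The median change over genes was -0.0001, and 5% of genes lay below -1.67 and 5% above 1.65. Arrays of both groups did not overlap for 8005 probe sets with darkened shoots above (35.2%) and 8014 with darkened shoots below (35.2%). Replicates correlated across probe sets with a Pearson's r of 0.9955 in darkened shoots and 0.9915 in light shoots, and arrays of the 2 groups with 0.8801 to 0.8829. No detection calls were used here. The TrpnX controls, for a sequence plants lack, read 3.29 to 3.67 on these arrays, so a value near that level may be background and a change against it may be understated. Among the manufacturer's plant controls, the 25S ribosomal RNA probe set read 13.35 and 13.48 in darkened shoots, against 11.22 and 11.69 in light shoots. The 5 GAPDH controls were lower in darkened shoots, with differences of -1.37 to -1.14, while actin and ubiquitin controls differed by -0.38 to 0.26. The part of these controls in the results was not tested.

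The tissue label was checked with markers. The 5 measured shoot markers (PRK, RCA, SBPASE, STOMAGEN and SPCH) were 2.17 to 8.84 higher in light shoots than in light roots, and the 4 measured root markers (EXPA7, EXPA18, AT3G01190 and PYK10) lower, by -7.64 to -3.62. In the darkness comparison 0 of 4 root markers were called, and their summed level was 9.50 and 9.24 in darkened shoots, against 9.60 and 9.51 in light shoots on the log2 scale. Of the shoot markers 4 of 5 were lower in darkened shoots, with a summed level of 14.33 and 14.44 in darkened shoots and of 15.21 on both light arrays. SPCH, which starts the stomatal lineage, read 4.32 and 4.53 in darkened shoots and 6.27 and 5.76 in light shoots, a change of -1.59 (SE 0.16, adjusted p = 1.0e-07). STOMAGEN, a mesophyll peptide that promotes stomata, read 7.88 and 7.78 in darkened shoots and 9.43 and 9.30 in light shoots (-1.54, SE 0.13, adjusted p = 1.8e-08). Fewer cells of a type and less RNA per cell cannot be told apart in such whole-organ samples.

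Genes of amino acid breakdown rose together in darkened shoots. Of 12 measured genes 11 were higher, 0 were lower, and the median change was 3.72, where 23.3% of all genes were higher. The list was chosen with earlier results of these data known, as were all lists here. Over the lists 385 of 2326 listed genes were measured, and the counts describe those alone. AT4G33150, annotated as the lysine-degrading enzyme LKR/SDH, rose most, with 12.70 and 12.45 in darkened shoots and 6.0 and 5.93 in light shoots, a change of 6.61 (SE 0.17, adjusted p = 4.4e-15) or 97.5-fold. Leucine breakdown was covered by 3 genes. IVD, the isovaleryl-CoA dehydrogenase that passes electrons to the flavoprotein, read 12.56 and 12.59 in darkened shoots and 6.66 and 6.59 in light shoots, a 61.8-fold rise (5.95, SE 0.13, adjusted p = 3.3e-16). MCCA and MCCB encode the subunits of methylcrotonoyl-CoA carboxylase, which acts just after IVD. MCCA had 13.29 and 13.37 in darkened shoots and 7.39 and 7.41 in light shoots (5.93, SE 0.12, adjusted p = 2.4e-16), and MCCB 11.78 and 11.78 in darkened shoots and 8.08 and 8.25 in light shoots (3.61, SE 0.13, adjusted p = 1.6e-13). In each of these genes the 4 arrays fell into separate pairs, with a gap between the groups many times the gap between replicates.

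The electron route that serves these enzymes rose in the same shoots. ETFQO, the oxidoreductase that hands electrons from the flavoprotein to ubiquinone, had 11.10 and 11.17 in darkened shoots and 6.91 and 6.82 in light shoots (4.27, SE 0.14, adjusted p = 8.1e-14). The flavoprotein's own subunit genes moved less, ETFBETA by 1.94 (SE 0.16, adjusted p = 8.2e-09) and ETFALPHA by 1.32 (SE 0.12, adjusted p = 5.5e-08). D2HGDH, a hydroxyglutarate dehydrogenase that also feeds the flavoprotein, rose by 1.62 (SE 0.17, adjusted p = 3.0e-07). MGL, methionine gamma-lyase, read 13.11 and 12.81 in darkened shoots and 7.58 and 7.29 in light shoots (5.52, SE 0.23, adjusted p = 1.0e-12), and ALDH6B2, a methylmalonate-semialdehyde dehydrogenase of valine breakdown, 12.89 and 12.92 in darkened shoots and 9.07 and 9.08 in light shoots (3.83, SE 0.11, adjusted p = 1.1e-14). The asparaginases stood apart from the rest of the list. ASPGA1 rose by only 0.60 (SE 0.12, adjusted p = 0.00044), and ASPGB1, with 6.98 and 7.58 in darkened shoots and 6.86 and 6.41 in light shoots, did not pass (0.64, adjusted p = 0.081). Another aldehyde dehydrogenase outside the list, ALDH7B4, had 12.80 and 13.18 in darkened shoots and 8.85 and 9.12 in light shoots (4.01, SE 0.18, adjusted p = 2.3e-12).

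**Figure D1:**
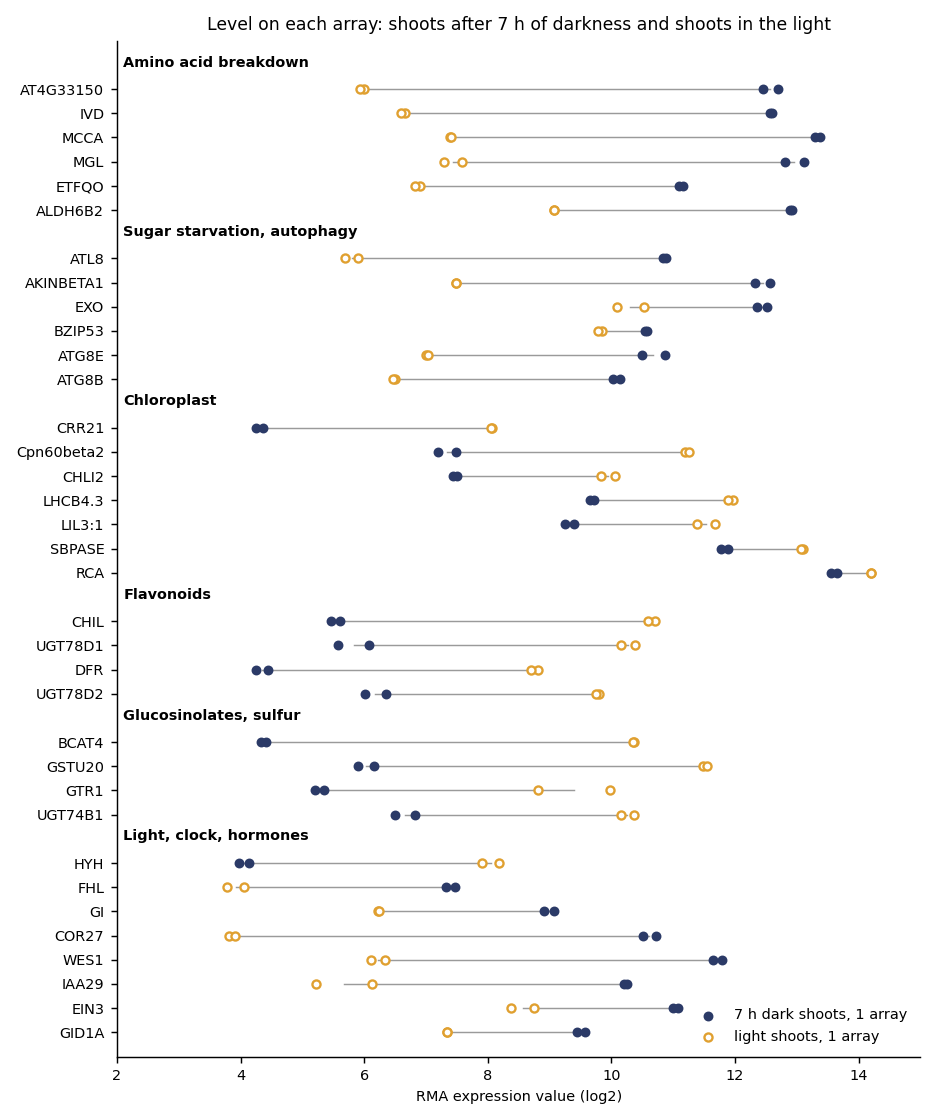
RMA expression values (log2, horizontal axis) of 35 genes, in 6 groups down the page, on each of the 2 arrays of shoots after 7 h of darkness (filled) and of light shoots (open), with a line joining the group means. In each gene drawn, RCA included, both arrays of 1 group lay beyond both arrays of the other; the gap was widest for COR27 (6.75) and AT4G33150 (6.61) and narrowest for RCA (-0.60).

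All 4 measured genes of the sugar starvation list rose, of 33 listed, with a median change of 3.55. AKINBETA1 encodes a beta subunit of SnRK1 and read 12.33 and 12.57 in darkened shoots and 7.48 and 7.48 in light shoots (4.97, SE 0.12, adjusted p = 1.7e-15), a 31.3-fold rise. ATL8, a RING ubiquitin ligase of membranes that is on the ubiquitin list too, had 10.84 and 10.88 in darkened shoots and 5.90 and 5.69 in light shoots (5.06, SE 0.15, adjusted p = 2.2e-14). EXO, a secreted protein linked to growth under low carbon, had 12.52 and 12.36 in darkened shoots and 10.52 and 10.09 in light shoots (2.13, SE 0.17, adjusted p = 4.5e-09). BZIP53, a bZIP factor that activates amino acid metabolism genes, changed least, with 10.54 and 10.57 in darkened shoots and 9.85 and 9.79 in light shoots (0.74, SE 0.13, adjusted p = 6.8e-05).

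Autophagy delivers cell contents to the vacuole in vesicles whose membranes carry the ubiquitin-like protein ATG8. All 10 measured autophagy genes were higher in darkened shoots (median change 2.16), 9 of them ATG8 genes with changes from 1.42 to 3.66. ATG8E read 10.49 and 10.87 in darkened shoots and 7.0 and 7.04 in light shoots (3.66, SE 0.15, adjusted p = 1.4e-12). ATG8B read 10.03 and 10.15 in darkened shoots and 6.50 and 6.46 in light shoots (3.61, SE 0.13, adjusted p = 1.8e-13), and ATG8H 9.41 and 9.51 in darkened shoots and 6.0 and 6.20 in light shoots (3.36, SE 0.15, adjusted p = 3.1e-12). ATG3, the enzyme that couples ATG8 to lipid, rose by 1.13 (SE 0.13, adjusted p = 4.4e-07), the least of the 10. Members of the ATG8 family are similar in sequence, and cross-hybridisation between their probe sets was not tested.

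Protein turnover by ubiquitin moved less uniformly. Of 27 measured genes for ubiquitin enzymes and the proteasome, 11 were higher and 3 lower (median 0.28). The conjugating enzymes UBC28 and UBC32 rose by 1.57 (SE 0.12, adjusted p = 2.0e-09) and 1.57 (SE 0.13, adjusted p = 5.9e-09), and the U-box ligase PUB25 by 1.42 (SE 0.19, adjusted p = 3.6e-06). PUB23 was lower, with a change of -0.93 (SE 0.33, adjusted p = 0.026) that rested on 1 array: it was -0.15 without light replicate 2 (adjusted p = 0.68) and -1.72 without light replicate 1 (adjusted p = 1.5e-05). PPDK, pyruvate orthophosphate dikinase, was the member of 6 measured alternative respiration and carbon re-use genes that rose. It read 12.28 and 12.45 in darkened shoots and 8.53 and 8.85 in light shoots (3.67, SE 0.15, adjusted p = 1.1e-12). In that list NDC1 (-1.63, SE 0.17, adjusted p = 2.1e-07) and NDB2 (-0.70, SE 0.16, adjusted p = 0.0013), both type II NAD(P)H dehydrogenases, fell, NDB2 by 0.41 without dark replicate 2 (adjusted p = 0.05).

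**Figure D2:**
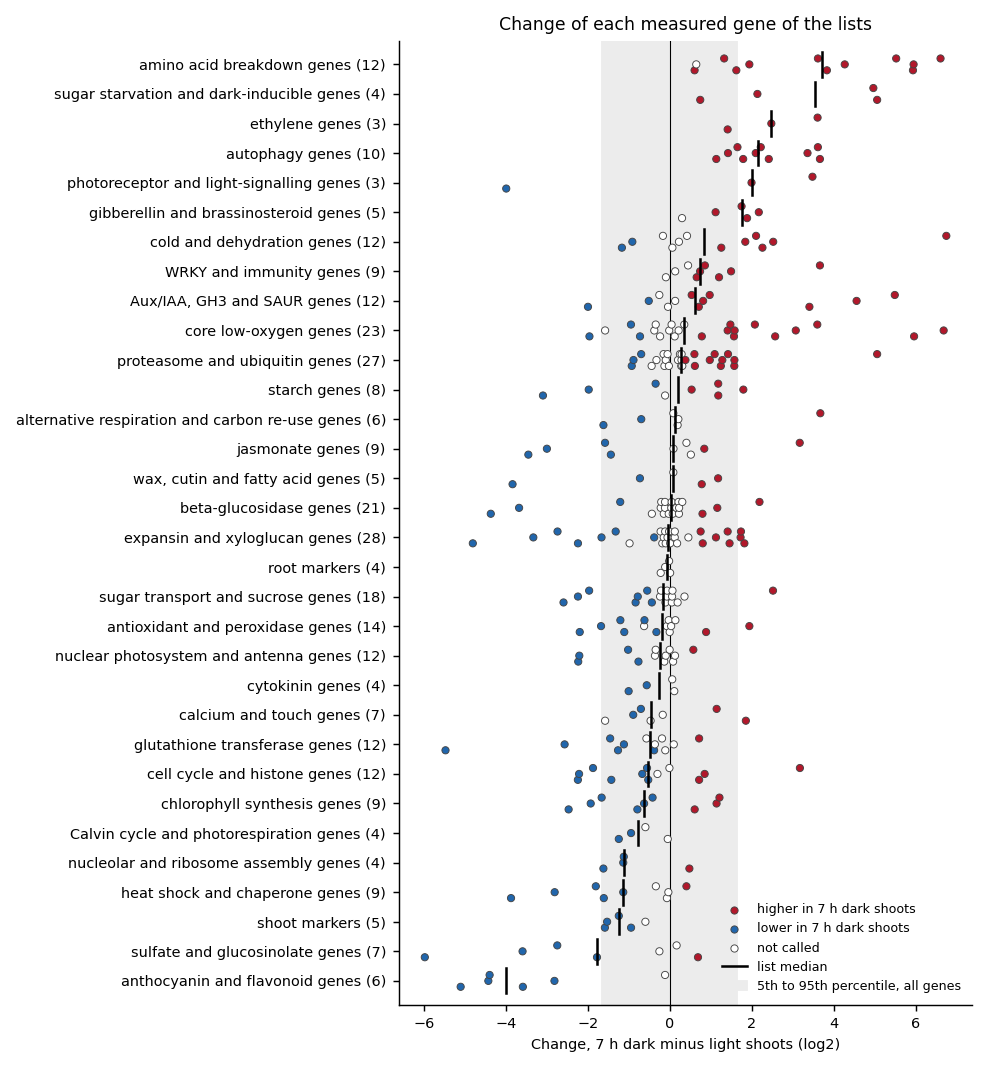
Change between shoots after 7 h of darkness and light shoots (log2, horizontal axis) for each measured gene of 32 lists, ordered by their median (black bar), with the number measured in brackets. The lists drawn have at least 3 measured genes and include the shoot and root markers, and the plastid-encoded genes are left out. Red points were called higher, blue points lower, and white points were not called; the grey band holds all but the outer 5% of genes on each side, from -1.67 to 1.65. Amino acid breakdown, sugar starvation, ethylene and autophagy stand at the top with 0 called lower, and anthocyanin and flavonoid genes at the bottom with 0 called higher.

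Genes that store or move carbohydrate changed in both directions. Of 8 measured starch genes 4 were higher and 3 lower (median 0.20). APL3, a large subunit of ADP-glucose pyrophosphorylase at the entry to starch synthesis, had 5.08 and 4.45 in darkened shoots and 7.76 and 7.98 in light shoots (-3.10, SE 0.17, adjusted p = 3.4e-11). SBE2.2, a branching enzyme, had 7.72 and 7.92 in darkened shoots and 9.73 and 9.88 in light shoots (-1.99, SE 0.14, adjusted p = 1.8e-09). The genes that rose included DPE1, the plastid disproportionating enzyme of starch breakdown, by 1.18 (SE 0.16, adjusted p = 3.8e-06), and QQS, an Arabidopsis-specific gene whose loss raises leaf starch, by 1.79 (SE 0.24, adjusted p = 5.4e-06). After 24 h of darkness, at the clock time of the light harvest, DPE1 did not differ from light beyond the threshold (0.22, adjusted p = 0.27). QQS was then 2.04 above light (adjusted p = 9.3e-07). The light arrays of QQS read 6.61 and 6.37 and the dark arrays spread further, at 7.91 and 8.65. ATSPS4F, a sucrose-phosphate synthase, had 6.65 and 6.25 in darkened shoots and 10.33 and 10.58 in light shoots (-4.01, SE 0.16, adjusted p = 5.3e-13).

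Sugar transport and sucrose genes were more often lower than higher, 7 against 1 of 18 measured, where 21.5% of all genes were lower and 23.3% higher. SWEET proteins let sugars out of cells or vacuoles, and 5 of 14 measured SWEET genes fell and 0 rose. SWEET17, a fructose carrier of the vacuole, had 6.53 and 6.40 in darkened shoots and 9.09 and 9.04 in light shoots (-2.60, SE 0.26, adjusted p = 9.9e-08). SWEET11, which exports sucrose towards the phloem, had 8.51 and 8.33 in darkened shoots and 10.46 and 10.33 in light shoots (-1.98, SE 0.20, adjusted p = 1.6e-07), and SWEET13 changed by -2.25 (SE 0.17, adjusted p = 2.5e-09). SAG29, also known as SWEET15 and listed here with chlorophyll breakdown genes as a senescence marker, fell as well, with 5.04 and 5.03 in darkened shoots and 8.33 and 7.98 in light shoots (-3.12, SE 0.14, adjusted p = 2.3e-12). The 3 measured tonoplast sugar carriers split. TMT1 rose, with 10.34 and 10.68 in darkened shoots and 8.02 and 7.97 in light shoots (2.52, SE 0.15, adjusted p = 1.9e-10), while TMT2 and TMT3 fell by 0.56 (SE 0.12, adjusted p = 0.00054) and 0.44 (SE 0.15, adjusted p = 0.019).

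Chloroplast genes gave a mixed picture. Of 12 measured nuclear photosystem and antenna genes 4 were lower and 1 higher (median -0.25). The antenna gene LHCB4.3 read 9.65 and 9.73 in darkened shoots and 11.97 and 11.89 in light shoots (-2.24, SE 0.14, adjusted p = 2.7e-10), whereas its paralogs LHCB4.1 (0.08, adjusted p = 0.76) and LHCB4.2 (-0.14, adjusted p = 0.65) did not pass. LIL3:1, a light-harvesting-like protein needed for chlorophyll synthesis, fell to 9.25 and 9.39 in darkened shoots, against 11.39 and 11.68 in light shoots (-2.22, SE 0.12, adjusted p = 3.1e-11). PGRL1B, of cyclic electron flow, was the member that rose (0.57, SE 0.12, adjusted p = 0.00059). The ATP synthase gamma subunit ATPC1 fell by 1.02 (SE 0.17, adjusted p = 4.8e-05).

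Chlorophyll synthesis genes moved both ways, with 6 of 9 measured genes lower and 3 higher. Of the higher ones HEMA2 rested on 1 array: its change of 0.60 was 0.16 without light replicate 1 and 1.05 without light replicate 2. CHLI2, a subunit of the magnesium chelatase that commits protoporphyrin to chlorophyll, had 7.44 and 7.50 in darkened shoots and 9.84 and 10.06 in light shoots (-2.48, SE 0.14, adjusted p = 9.6e-11). GSA1, which makes the precursor 5-aminolevulinate, changed by -1.94 (SE 0.16, adjusted p = 1.3e-08) and HEME2, a uroporphyrinogen decarboxylase, by -1.67 (SE 0.15, adjusted p = 3.4e-08). PORB, the light-dependent protochlorophyllide reductase, was higher, with 11.47 and 11.57 in darkened shoots and 10.31 and 10.46 in light shoots (1.14, SE 0.21, adjusted p = 0.00017). After 24 h of darkness 6 of the 9 genes were lower than in light and 1 was higher. The higher one was hemf2 (1.35, SE 0.23, adjusted p = 5.2e-05), so PORB was not called higher at that harvest. Of the 4 measured Calvin cycle genes, SBPASE fell to 11.78 and 11.88 in darkened shoots, against 13.09 and 13.06 in light shoots (-1.25, SE 0.16, adjusted p = 1.8e-06). PRK fell by 0.95 (SE 0.28, adjusted p = 0.0081), but not past the threshold when dark replicate 1 was left out (adjusted p = 0.053). RCA, the rubisco activase, had 13.56 and 13.66 in darkened shoots and 14.21 and 14.21 in light shoots, and its change of -0.60 did not pass (SE 0.31, adjusted p = 0.13) but did in a fit to the 4 arrays alone (adjusted p = 0.0043). Its 4 arrays did not overlap.

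Further groups of genes for chloroplast proteins were picked after their values were seen. All 5 measured CRR genes, which share a name and encode proteins needed for the chloroplast NADH dehydrogenase-like complex, were lower (-3.76 to -0.72). CRR21 read 4.37 and 4.25 in darkened shoots and 8.07 and 8.06 in light shoots (-3.76, SE 0.17, adjusted p = 4.2e-12). All 3 measured Cpn60 beta genes, subunits of the chaperonin that folds chloroplast proteins, were lower too. Cpn60beta2 read 7.49 and 7.19 in darkened shoots and 11.19 and 11.25 in light shoots (-3.88, SE 0.17, adjusted p = 3.3e-12), Cpn60beta4 changed by -2.82 and Cpn60beta3 by -1.62. They made up 3 of the 5 members that fell among 9 measured heat shock and chaperone genes, beside Hsp70-2 (-1.81, SE 0.13, adjusted p = 2.0e-09) and the calreticulin CRT1b (-1.14, SE 0.13, adjusted p = 4.5e-07). Of 14 measured antioxidant and peroxidase genes 6 were lower and 2 higher. The stromal ascorbate peroxidase SAPX had 8.28 and 8.36 in darkened shoots and 10.41 and 10.64 in light shoots (-2.20, SE 0.16, adjusted p = 2.2e-09), and the cytosolic and plastid glutathione reductases GR1 and GR changed by -1.68 (SE 0.13, adjusted p = 3.6e-09) and -1.21 (SE 0.13, adjusted p = 2.0e-07). The glutaredoxin GRXC1 rose by 1.94 (SE 0.12, adjusted p = 2.6e-10).

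Transcripts of the plastid genome were seldom called. Of 69 measured plastid-encoded genes 3 were called higher and 8 lower, where 44.8% of all genes were called, with a median change of -0.05. Labelling for such arrays usually starts from poly(A) tails, which plastid transcripts seldom carry. Some of these genes had large standard errors, 0.37 for psbN, 0.42 for ndhK and 0.46 for atpI, so that smaller changes could be missed. The highest light value in the list was 14.37, where the light arrays reached at most 14.39 and 14.47. The part of these limits in the low share of calls was not tested. The ribosomal protein gene rps16 changed most, with 4.91 and 5.38 in darkened shoots and 7.99 and 8.21 in light shoots (-2.95, SE 0.32, adjusted p = 3.3e-07). The photosystem gene psbA changed by -0.61 (SE 0.21, adjusted p = 0.023), and rbcL, the large subunit of rubisco, by -0.63 without passing (adjusted p = 0.27). Several of the plastid calls leaned on 1 array. Without dark replicate 1 the change of matK went from -1.11 to -0.70 and that of rpl33 from -0.65 to -0.40. In the same fit psbN went from -1.30 to -0.82 and ndhK from -1.26 to -0.94. The change of ndhD went from -0.82 to -0.45 without light replicate 1, and that of atpI from 1.20 to 0.59 without dark replicate 2. The calls of all these genes ended in 1 or more fits that left out an array.

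Flavonoid genes had the lowest median of the 32 lists with at least 3 measured genes, -4.00, with 5 of 6 measured genes lower and 0 higher. CHIL, a chalcone isomerase-like protein that aids the first steps of the pathway, had 5.61 and 5.46 in darkened shoots and 10.70 and 10.60 in light shoots (-5.11, SE 0.21, adjusted p = 1.3e-12). DFR, the dihydroflavonol reductase that leads to anthocyanins, had 4.26 and 4.45 in darkened shoots and 8.82 and 8.70 in light shoots (-4.41, SE 0.14, adjusted p = 5.7e-14). Enzymes that attach sugars to flavonols and anthocyanins followed. UGT78D1 had 6.08 and 5.57 in darkened shoots and 10.38 and 10.15 in light shoots (-4.44, SE 0.20, adjusted p = 4.3e-12), UGT78D2 changed by -3.59 (SE 0.18, adjusted p = 1.1e-11) and UF3GT by -2.82 (SE 0.13, adjusted p = 4.2e-12). UGT78D3, low on all arrays at 4.13 and 4.10 in darkened shoots and 4.22 and 4.25 in light shoots, did not pass (adjusted p = 0.5). Over the whole UGT family of glycosyltransferases, 11 of 47 measured genes were higher and 9 lower (median 0.13).

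Aliphatic glucosinolates are the sulfur-rich defence compounds of crucifers, made from methionine. Of 7 measured genes for sulfate use and glucosinolates, 4 were lower and 1 higher (median -1.78). BCAT4, the aminotransferase that starts methionine chain elongation, had 4.33 and 4.41 in darkened shoots and 10.36 and 10.35 in light shoots (-5.99, SE 0.19, adjusted p = 5.2e-14). UGT74B1, which adds glucose in the core pathway, had 6.83 and 6.49 in darkened shoots and 10.15 and 10.37 in light shoots (-3.60, SE 0.20, adjusted p = 6.7e-11). AOP1, a dioxygenase of the family that modifies glucosinolate side chains, fell by 2.75 (SE 0.17, adjusted p = 1.6e-10). GTR1, a glucosinolate transporter outside the list, had 5.20 and 5.35 in darkened shoots and 8.82 and 9.98 in light shoots (-4.12, SE 0.25, adjusted p = 1.8e-10). The ATP sulfurylases parted, with APS3 lower (-1.78, SE 0.18, adjusted p = 1.8e-07) and APS4 higher (0.68, SE 0.17, adjusted p = 0.0026).

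Of 12 measured glutathione transferase genes 6 were lower and 1 higher. GSTU20 had 5.91 and 6.16 in darkened shoots and 11.48 and 11.55 in light shoots (-5.48, SE 0.24, adjusted p = 2.0e-12), and GSTU27 changed by -2.57 (SE 0.20, adjusted p = 5.0e-09). The beta-glucosidases showed no common direction, with 3 of 21 higher and 3 lower. BGLU40 read 5.16 and 5.07 in darkened shoots and 9.51 and 9.48 in light shoots (-4.38, SE 0.19, adjusted p = 1.6e-12), and BGLU16 10.25 and 10.40 in darkened shoots and 8.34 and 7.94 in light shoots (2.19, SE 0.20, adjusted p = 4.2e-08). MSRB6 and MSRB5, methionine sulfoxide reductases that repair oxidised protein, fell by 5.11 (SE 0.14, adjusted p = 6.7e-15) and 3.85 (SE 0.20, adjusted p = 1.9e-11). WSD1, a wax ester synthase, had 3.46 and 3.41 in darkened shoots and 7.46 and 7.10 in light shoots (-3.85, SE 0.13, adjusted p = 6.8e-14); of the 5 measured wax, cutin and fatty acid genes 2 were lower and 2 higher.

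The 3 measured genes of light perception and signalling, of 61 listed, all changed. HYH, the homologue of HY5, had 4.13 and 3.97 in darkened shoots and 7.91 and 8.18 in light shoots (-4.0, SE 0.14, adjusted p = 1.8e-13). FHL carries phytochrome A into the nucleus and had 7.32 and 7.48 in darkened shoots and 3.78 and 4.06 in light shoots (3.48, SE 0.15, adjusted p = 2.1e-12). HAT2, a homeodomain factor of shade and auxin responses, had 9.96 and 9.91 in darkened shoots and 8.13 and 7.76 in light shoots (1.99, SE 0.15, adjusted p = 3.1e-09). HYH was thus lower on both dark arrays than on both light arrays, and FHL and HAT2 higher, without overlap.

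Auxin genes that conjugate the hormone or mark its response were among the largest rises. Of 12 measured Aux/IAA and GH3 genes 7 were higher and 2 lower (median 0.62). Among the higher ones IAA30 changed by 0.81, and by 0.52 without dark replicate 2. WES1, also called GH3.5, couples auxin and salicylate to amino acids. It read 11.65 and 11.78 in darkened shoots and 6.34 and 6.12 in light shoots, a 44.9-fold rise (5.49, SE 0.17, adjusted p = 2.8e-14). IAA29, an Aux/IAA protein and a known target of PIF factors, had 10.20 and 10.25 in darkened shoots and 6.12 and 5.22 in light shoots (4.56, SE 0.25, adjusted p = 4.9e-11). GH3.3 had 9.12 and 8.92 in darkened shoots and 5.48 and 5.75 in light shoots (3.40, SE 0.24, adjusted p = 1.2e-09), while GH3.9 fell by 2.0 (SE 0.11, adjusted p = 5.8e-11). After 24 h of darkness GH3.3 had come part of the way back, to 7.01 and 6.85, and was 1.32 above light (adjusted p = 0.00012). WES1 and IAA29 were then 5.74 and 4.10 above light.

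Of 63 listed gibberellin and brassinosteroid genes 5 were measured, and of 65 listed ethylene genes 3. Those measured rose or did not pass. All 3 gibberellin receptor genes were higher. GID1A had 9.45 and 9.57 in darkened shoots and 7.34 and 7.34 in light shoots (2.17, SE 0.14, adjusted p = 2.4e-10), and GID1C and GID1B rose by 1.88 (SE 0.27, adjusted p = 1.0e-05) and 1.11 (SE 0.15, adjusted p = 3.5e-06). BIM1, a bHLH partner of the brassinosteroid factor BES1, rose by 1.75 (SE 0.14, adjusted p = 4.7e-09). All 3 measured ethylene genes rose. EIN3, the transcription factor at the end of the ethylene pathway, had 11.08 and 11.0 in darkened shoots and 8.37 and 8.75 in light shoots (2.47, SE 0.13, adjusted p = 2.2e-11). ARL, an ARGOS-like protein that promotes cell expansion, had 8.91 and 9.28 in darkened shoots and 5.28 and 5.70 in light shoots (3.60, SE 0.19, adjusted p = 3.1e-11). RTE1, which acts on the receptor ETR1 and is on the low-oxygen list too, rose by 1.41 (SE 0.14, adjusted p = 1.3e-07). RD2, the measured member of the abscisic acid list and also on the dehydration list, rose by 2.26 (SE 0.12, adjusted p = 1.7e-11).

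Of 4 measured cytokinin genes 2 fell, among them the response regulator ARR15 with a change of -1.01 (SE 0.15, adjusted p = 2.1e-05). Jasmonate genes moved both ways, with 4 of 9 lower and 2 higher. JMT, which methylates jasmonate, had 4.15 and 4.08 in darkened shoots and 7.67 and 7.49 in light shoots (-3.46, SE 0.12, adjusted p = 1.5e-13). MYC4, a bHLH factor of jasmonate and glucosinolate control, had 4.56 and 5.45 in darkened shoots and 7.87 and 8.15 in light shoots (-3.01, SE 0.23, adjusted p = 2.8e-09), while its homologue MYC3 rose by 0.84 (SE 0.13, adjusted p = 2.4e-05). The defensin PDF1.4 rose to 7.43 and 7.79 in darkened shoots, against 4.48 and 4.40 in light shoots (3.17, SE 0.21, adjusted p = 6.0e-10). For nitrogen uptake only NRT2.5 was measured, and it did not pass (-0.07, adjusted p = 0.78).

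Cell wall genes included some of the deepest falls, though not as a class. TBL26, of the trichome birefringence-like family that acetylates wall polysaccharides, read 4.64 and 4.23 in darkened shoots and 11.06 and 11.64 in light shoots, the largest fall of a 1-gene probe set (-6.91, SE 0.17, adjusted p = 1.7e-15). Within its family 9 of 22 measured genes were lower and 4 higher (median -0.24). Of 28 measured expansin and xyloglucan genes 7 were lower and 8 higher (median -0.04). XTH32 had 6.52 and 6.52 in darkened shoots and 11.34 and 11.34 in light shoots (-4.82, SE 0.22, adjusted p = 3.3e-12), and the beta-expansins EXPB1 and EXPB3 changed by -3.34 (SE 0.25, adjusted p = 2.1e-09) and -2.75 (SE 0.27, adjusted p = 9.3e-08). Among those that rose were EXPA16 by 1.82 (SE 0.20, adjusted p = 4.4e-07) and XTH19 by 1.73 (SE 0.37, adjusted p = 0.00061), XTH19 by 0.98 without light replicate 1 (adjusted p = 0.02). GH9B8, a glycosyl hydrolase of the cellulase family, had 4.46 and 3.73 in darkened shoots and 8.85 and 8.50 in light shoots (-4.58, SE 0.22, adjusted p = 7.1e-12).

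Genes of cell division and ribosome making were lower in most measured cases. All 4 measured histone H2B genes fell. HTB2 had 7.27 and 7.22 in darkened shoots and 9.41 and 9.58 in light shoots (-2.25, SE 0.16, adjusted p = 1.6e-09), and HTB1 7.24 and 7.11 in darkened shoots and 9.57 and 9.22 in light shoots (-2.22, SE 0.16, adjusted p = 1.7e-09). The mitotic kinases AUR2 and AUR1 changed by -1.88 (SE 0.20, adjusted p = 2.3e-07) and -1.43 (SE 0.16, adjusted p = 5.1e-07). Their list of 12 had 7 lower and 3 higher members. Of the higher ones AUR3 changed by 0.71, and by 0.44 without dark replicate 1. The linker histone HIS1-3, known from drought, rose to 7.68 and 7.46 in darkened shoots, against 4.43 and 4.37 in light shoots (3.17, SE 0.25, adjusted p = 4.0e-09). NRPA1 and NRPA2, the large subunits of RNA polymerase I that transcribes ribosomal RNA, fell by 1.63 (SE 0.14, adjusted p = 2.1e-08) and 1.13 (SE 0.14, adjusted p = 2.5e-06), and the nucleolar protein IMP4 by 1.14 (SE 0.16, adjusted p = 9.4e-06). The signal of the 25S ribosomal RNA control stood 1.96 higher in the same shoots. Whether that control follows the amount of ribosomal RNA on these arrays was not tested. PGY1, the only measured cytosolic ribosomal protein gene, fell by 0.73 (SE 0.14, adjusted p = 0.00031).

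Of 16 listed evening clock genes only GI was measured, and none of the morning clock, CONSTANS-like and trehalose phosphate genes were. GI, GIGANTEA, peaks late in the day in plants under light and dark cycles. It read 6.22 and 6.23 in light shoots at 0 h, 9.08 and 8.91 after 7 h and 6.51 and 6.19 after 24 h of darkness. The rise at 7 h was 2.77 (SE 0.20, adjusted p = 1.2e-09), and the 24 h level was -2.64 from that at 7 h (SE 0.20, adjusted p = 8.1e-08). Against light, the 24 h level did not pass (0.13, adjusted p = 0.65). COR27, a cold-regulated repressor that also follows the clock, behaved otherwise. It read 3.82 and 3.92 in light shoots, 10.72 and 10.51 after 7 h and 9.77 and 9.74 after 24 h of darkness. Its rise at 7 h was 6.75 (SE 0.17, adjusted p = 2.8e-15), from light arrays near the level of the TrpnX controls. At the clock time of the light harvest it was still 5.89 above light (SE 0.17, adjusted p = 1.2e-14).

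Cold and dehydration genes rose in 6 of 12 cases and fell in 2 (median 0.83). The dehydrins COR47 and LTI30 rose, COR47 to 13.04 and 12.98 in darkened shoots, against 10.26 and 10.72 in light shoots (2.52, SE 0.13, adjusted p = 2.6e-11). LTI30 read 8.85 and 8.98 in darkened shoots and 6.37 and 7.78 in light shoots, a rise of 1.84 (SE 0.29, adjusted p = 3.0e-05) that was 1.13 without light replicate 1 (adjusted p = 0.00014). COR15A and COR15B, chloroplast cryoprotectants, fell by 1.18 (SE 0.16, adjusted p = 6.5e-06) and 0.92 (SE 0.19, adjusted p = 0.00038). Of 9 measured WRKY and immunity genes 6 rose and 0 fell. WRKY22 had 9.08 and 9.36 in darkened shoots and 5.50 and 5.62 in light shoots (3.66, SE 0.14, adjusted p = 3.8e-13), and the receptor-like kinase BIK1 rose by 1.49 (SE 0.17, adjusted p = 6.5e-07). The call of WRKY6 (0.85, SE 0.21, adjusted p = 0.0026) ended without light replicate 1 (adjusted p = 0.08). Of 7 measured calcium and touch genes 2 were higher and 2 lower. CML41 rose by 1.85 (SE 0.20, adjusted p = 2.6e-07), and CML38 read 5.18 and 5.25 in darkened shoots but 5.16 and 8.44 in light shoots, where 1 array alone was high, and did not pass (-1.59, adjusted p = 0.062).

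Genes of the core low-oxygen response were raised in air in 11 of 23 measured cases, lowered in 3 and not called in 9 (median 0.35). AT1G19530 had 10.76 and 11.08 in darkened shoots and 3.76 and 4.71 in light shoots (6.68, SE 0.31, adjusted p = 4.8e-12). AT4G27450 had 12.77 and 13.07 in darkened shoots and 6.98 and 6.94 in light shoots (5.96, SE 0.19, adjusted p = 3.6e-14), and AT2G15880 and AT4G39675 rose by 3.60 (SE 0.28, adjusted p = 4.5e-09) and 3.07 (SE 0.41, adjusted p = 4.4e-06). PDC2, a pyruvate decarboxylase of fermentation, rose by 1.56 (SE 0.20, adjusted p = 2.0e-06). The trihelix repressor HRA1 did not pass, with 4.88 and 4.58 in darkened shoots and 4.68 and 4.56 in light shoots (0.11, adjusted p = 0.77). AT4G17260, listed among these genes, fell by 0.73 (SE 0.16, adjusted p = 0.00069), and AT5G45960 by 1.97 (SE 0.15, adjusted p = 4.4e-09).

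The largest changes are ranked here over probe sets that name 1 gene, and other probe sets reached 9.06. Several lay in genes with only a locus tag in the annotation used. Among the 15 largest rises, between 5.83 and 7.53, the lowest dark array read 9.96 and the highest light array 7.41. AT1G72060 rose most of these, with 12.04 and 12.29 in darkened shoots and 4.54 and 4.73 in light shoots (7.53, SE 0.21, adjusted p = 1.0e-14). AT5G39520 (6.74), AT3G19390 (6.53), AT2G15960 (6.52) and AT3G15630 (6.23) were others of this set. The 15 largest falls, between -6.91 and -5.04, had dark arrays at 3.65 to 6.85 and light arrays at 9.89 to 11.91. AT1G13650 read 4.03 and 4.22 in darkened shoots and 10.65 and 10.39 in light shoots (-6.40, SE 0.13, adjusted p = 3.1e-16). AT2G27420 (-6.27), AT3G44450 (-6.11), AT1G60590 (-5.90) and AT3G28270 (-5.87) were others.

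Among the 20 largest rises of genes with a symbol, chosen after the values were seen, were several that no list held. SIS, named for induction by salt, had 12.24 and 12.04 in darkened shoots and 6.57 and 6.02 in light shoots (5.85, SE 0.20, adjusted p = 7.8e-14). ATIM, annotated as the homologue of TIMELESS, read 11.07 and 10.94 in darkened shoots and 6.12 and 5.90 in light shoots (5.0, SE 0.23, adjusted p = 3.4e-12). UPB1, a bHLH factor known for balancing reactive oxygen in root tips, rose by 4.40 (SE 0.16, adjusted p = 1.6e-13), and Fes1C, of a family of Hsp70 nucleotide exchange factors, by 3.83 (SE 0.11, adjusted p = 1.3e-14). GAT1_2.1, a glutamine amidotransferase-like gene, rose by 4.79 on 1 probe set (SE 0.17, adjusted p = 1.3e-13) and by 0.62 on its other (SE 0.18, adjusted p = 0.0079). The falls of that kind included AOR, a chloroplast alkenal reductase, with 8.0 and 7.91 in darkened shoots and 11.86 and 11.92 in light shoots (-3.94, SE 0.20, adjusted p = 1.2e-11). GT72B1, a glucosyltransferase of phenolics, changed by -3.73 (SE 0.18, adjusted p = 8.7e-12).

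Shoots after 24 h of darkness were harvested at the clock time of the light shoots. The comparison shares the light arrays with the 7 h comparison, and the test between 24 h and 7 h shares the dark ones, so the values are given side by side only. Between darkened shoots of 24 h and 7 h, 4184 probe sets were called (18.4%), 2033 higher (8.94%) and 2151 lower (9.46%) at 24 h. Leaving out any 1 of the 4 arrays lowered this count to between 2464 (without 24 h replicate 2) and 2728 (without 24 h replicate 1). Against light 11926 probe sets were called at 24 h (52.4%), or 48.3% of genes, with 25.0% of genes higher. The 15 largest rises of 7 h stood 3.19 to 7.06 above light at 24 h, and the 15 largest falls -6.66 to -3.02 from it. Amino acid breakdown genes had 11 of 12 members higher than in light at both times, with a median of 3.60 at 24 h, and IVD read 6.66 and 6.59 in light shoots, 12.56 and 12.59 after 7 h and 12.37 and 12.26 after 24 h.

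Some genes moved back towards the light level by 24 h. AT1G56300 read 4.11 and 4.48 in light shoots, 9.96 and 10.38 after 7 h and 7.57 and 7.40 after 24 h (24 h minus 7 h -2.68; SE 0.21, adjusted p = 1.7e-07). AT2G43620 read 5.04 and 5.38, 10.36 and 10.24 and 6.99 and 7.46 in the same order (-3.08, SE 0.23, adjusted p = 1.1e-07). Both were still above light at 24 h. From the other side, SWEET11 read 10.46 and 10.33 in light shoots, 8.51 and 8.33 after 7 h and 10.58 and 10.56 after 24 h (2.15, SE 0.20, adjusted p = 1.2e-06). AT1G64500 read 9.34 and 9.32, 6.19 and 6.36 and 9.23 and 9.24 in that order (2.96, SE 0.17, adjusted p = 5.5e-09). At 24 h these 2 genes did not differ from light beyond the threshold (adjusted p = 0.53 and 0.7), as GI did not.

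Others moved on in the direction of the first 7 h. LHCB4.3 read 11.97 and 11.89 in light shoots, 9.65 and 9.73 after 7 h and 6.75 and 6.49 after 24 h (-3.06, SE 0.14, adjusted p = 4.3e-10). COR15A read 11.96 and 12.10, 10.80 and 10.90 and 7.50 and 7.36 in that order (-3.42, SE 0.16, adjusted p = 5.5e-10), and COR15B changed by -3.63 between the dark harvests (SE 0.19, adjusted p = 1.4e-09). SBPASE lost a further 1.49 (SE 0.16, adjusted p = 4.0e-06). HIS1-3 rose at both steps, with 4.43 and 4.37 in light shoots, 7.68 and 7.46 after 7 h and 10.61 and 10.98 after 24 h (3.22, SE 0.25, adjusted p = 1.1e-07). AT5G15950 and AT2G41250 had fallen at 7 h and rose after it, AT2G41250 to 10.77 and 10.80 at 24 h, above its light arrays at 9.86 and 9.67.

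**Figure D3:**
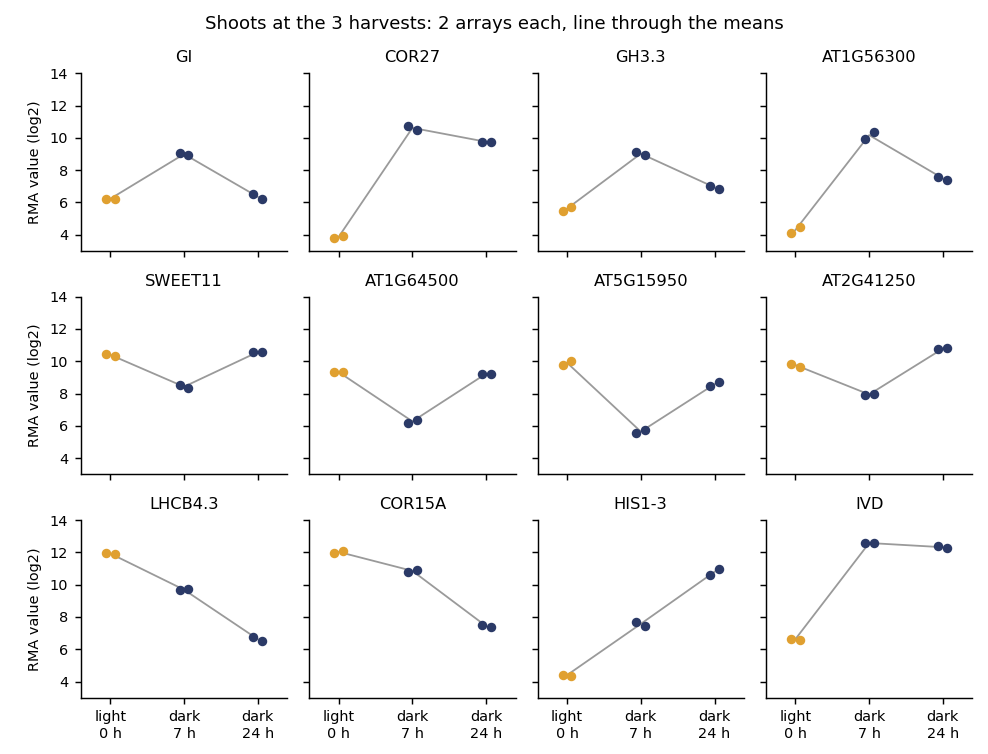
RMA values (log2, vertical axis) of 12 genes in shoots at the 3 harvests, light at 0 h, dark at 7 h and dark at 24 h, with 2 arrays each and a line through the means. The light and 24 h harvests share a clock time; GI, SWEET11 and AT1G64500 lie near their light level at 24 h, LHCB4.3, COR15A and HIS1-3 move further, and IVD lies near its 7 h level.

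Roots harvested under the same conditions allow a test of where the 7 h response of shoots differed, since no array is shared. In roots 10660 probe sets were called between 7 h of darkness and light (46.9%), or 43.0% of genes, 22.4% higher and 20.6% lower. The difference of the responses, shoots minus roots, was called for 8829 probe sets (38.8%), 4653 higher (20.5%) and 4176 lower (18.4%), and for 35.3% of genes, 19.5% higher and 15.8% lower. All 15 of the largest shoot rises were also called higher in roots, by 1.48 to 5.28, and in all 15 the shoot rise was the larger by the test of the difference. Several of these genes started higher in roots. AT3G19390 read 10.90 and 10.76 in light roots and 4.64 and 4.75 in light shoots. In darkness it read 13.27 and 13.34 in roots and 11.19 and 11.26 in shoots. COR27 and AT1G72060 started at similar levels in both organs, and AT2G15960 started higher in shoots. The part of the starting level was not tested. Of the 15 largest shoot falls 7 were called lower in roots, 1 higher and 7 not called, and 14 of the 15 differences passed. However, 7 of the 15 read under 5 on all 4 root arrays, with light root arrays at 3.27 to 4.91, so that a deep fall could not have been seen there. Of the other 8, 6 were called lower in roots and 7 differences passed. The rises and falls were chosen for their size in shoots, which by itself favours a larger value there.

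Amino acid breakdown rose in both organs, with 12 of 12 measured genes higher in roots (median 2.79, against 3.72 in shoots). IVD rose by 5.95 in shoots and 3.82 in roots (difference 2.13, SE 0.18, adjusted p = 3.5e-08), and MGL by 5.52 in shoots and 5.99 in roots, a difference that did not pass (-0.47, adjusted p = 0.28). ASPGB1, not called in shoots, rose by 6.05 in roots (difference -5.41, SE 0.41, adjusted p = 1.3e-08). Autophagy genes differed between the organs. All 10 had a larger change in shoots by the test of the difference, with a median of 2.16 in shoots and 0.49 in roots. Shoots started lower in the ATG8 genes that rose most there. In the light ATG8E, ATG8B, ATG8H and APG8A differed by -2.06, -1.39, -3.53 and -2.59, shoots minus roots. After 7 h of darkness their means in shoots and roots were 10.68 and 10.03, 10.09 and 8.50, 9.46 and 8.96, and 10.58 and 11.35. The part of the starting level in the difference was not tested. ATG8H rose by 3.36 in shoots and fell by 0.67 in roots (difference 4.03, SE 0.21, adjusted p = 1.7e-10). In the sugar starvation list ATL8 rose by 5.06 in shoots and 5.12 in roots, a difference that did not pass (-0.07, SE 0.22, adjusted p = 0.85), whereas EXO rose in shoots and fell by 1.15 in roots (difference 3.28, SE 0.24, adjusted p = 6.1e-09).

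Among the 6 flavonoid genes 5 differences passed, all more negative in shoots. Their light root arrays read only 3.89 to 5.94, which leaves little room for a fall in roots. DFR changed by -4.41 in shoots and 0.17 in roots (difference -4.57, SE 0.20, adjusted p = 2.7e-11), with 4.41 and 4.38 on the light root arrays. BCAT4 fell in both, by 5.99 in shoots and by 3.74 in roots (difference -2.25, SE 0.27, adjusted p = 3.3e-06), and GSTU20 likewise, by 5.48 in shoots and 4.71 in roots (difference -0.78, adjusted p = 0.078). Of the 12 nuclear photosystem and antenna genes 1 rose and 4 fell in shoots (median -0.25), and 7 rose and 0 fell in roots (median 0.77). The difference passed for 8 as lower and for 1 as higher in shoots. Some of these genes read low in roots, where a fall could not have been seen. LIL3:1, counted as a rise in roots, read 3.83 and 3.99 in darkened and 3.53 and 3.63 in light roots. Those values lie near the level of the TrpnX controls on the shoot arrays. ATPC1 stood higher, at 6.55 and 6.59 in light roots. ATPC1 fell by 1.02 in shoots and rose by 0.91 in roots (difference -1.94, SE 0.24, adjusted p = 3.7e-06). Plastid-encoded genes had 22 of 69 higher in roots and 3 of 69 higher in shoots, and for 15 the difference passed, each lower in shoots. In light roots rps16, psbN, ndhK and atpI read only 3.08 to 4.57, which leaves little room for a fall there. Root levels of the other plastid-encoded genes are not given here.

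Wall genes parted too. Of the 28 expansin and xyloglucan genes 18 fell in roots against 7 in shoots, and 16 had a more positive change in shoots by the test of the difference. XTH19 read 7.63 and 8.28 in darkened shoots and 5.47 and 6.97 in light shoots, and 7.03 and 7.65 in darkened roots and 11.72 and 12.05 in light roots (difference 6.28, SE 0.52, adjusted p = 3.3e-08). UGT72E1, a glucosyltransferase of lignin precursors, rose by 3.61 in shoots and fell by 2.57 in roots (difference 6.18, SE 0.24, adjusted p = 5.4e-12). In the other direction TBL26 changed by -6.91 in shoots and by -0.17 in roots, without passing there (adjusted p = 0.45), a difference of -6.74 (SE 0.24, adjusted p = 1.8e-12). Its light root arrays read 4.27 and 4.40, too low for a deep fall to be seen. GI rose in both organs, by 2.77 in shoots and 1.88 in roots (difference 0.89, SE 0.28, adjusted p = 0.016), and PPDK rose more in roots, by 3.67 in shoots and 5.63 in roots (difference -1.96, SE 0.21, adjusted p = 9.3e-07).

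**Figure D4:**
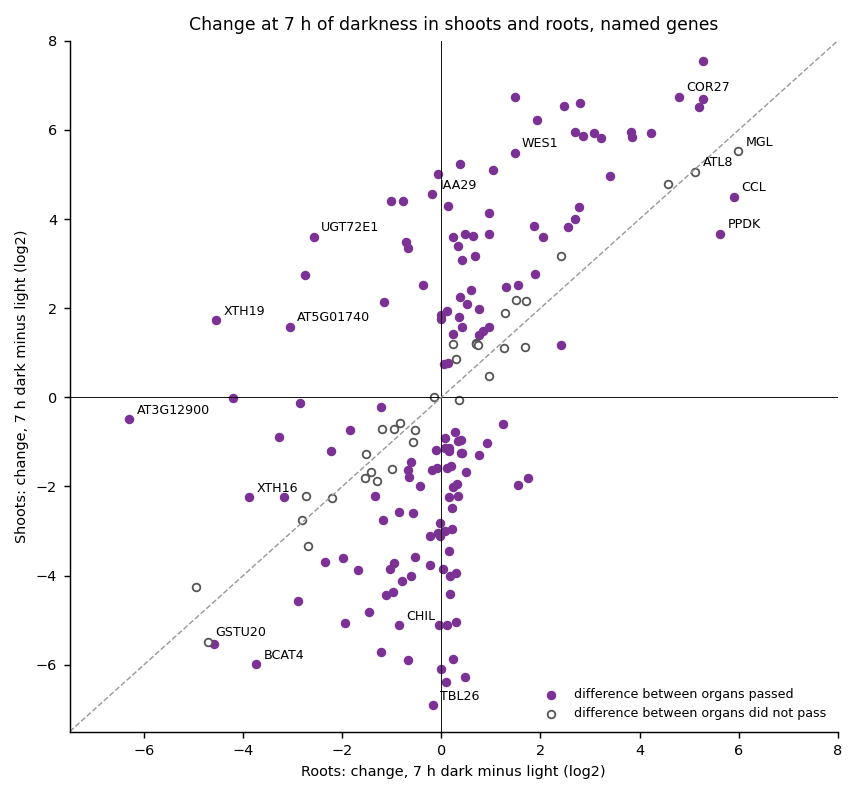
Change between 7 h of darkness and light (log2) in shoots (vertical axis) and roots (horizontal axis) for the 179 named genes; filled points passed the test of the difference between the organs (146 genes) and open points did not, and the dashed line marks equal change. MGL and ATL8 lie near the line, TBL26, with low values in roots, is near 0 there, and XTH19, UGT72E1 and AT5G01740 rise in shoots and fall in roots.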

How the data were processed

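RNA from shoots and roots was hybridised to Affymetrix ATH1 arrays, and the deposited values are log2 expression values made by the authors with RMA in the affy package, per the submitters' processing notes; versions are not given in the sources used here. The values were used as deposited. limma 3.58.1 in R 4.3.3 fitted 10 groups of 2 arrays (10 residual and 7.04 prior degrees of freedom), without a replicate block, and p-values were adjusted by Benjamini-Hochberg over 22746 probe sets. Of these, 13513 name 1 gene in the platform annotation, 503 several and 8730 none, so many well-known genes were not analysed here. RefSeq's TAIR10.1 names matched 13436 of the 13513, and a list of mitochondrial genes found no member by locus. A gene with several probe sets was counted by the one with the highest mean. No depth applies to arrays, and their number limits the precision. In simulated data with this design in which few probe sets changed, which makes the adjusted threshold stricter, 11 of 67 changes of 0.5, 59 of 67 of 1 and 66 of 66 of 2 (log2) were called, with 5 of 22546 unchanged probe sets.

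Genes were named by rule: the 15 largest rises and falls among called 1-gene probe sets without overlap of arrays, up to 4 called members of each list, all clock, sugar starvation and marker genes, and the 5 largest differences in each direction from roots and from 24 h. The members and lists were chosen with earlier results of these data known. The 20 largest rises and falls with a symbol, the families, and list members named for contrast were added after the values were seen. Alternatives changed the filter, probe sets, scaling, variance model, minimum change, arrays fitted and replicate block, or left out an array. No promoter or protein sequences were used here, and a planned motif search was not run.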

Additional observations from a re-analysis of the deposited data

Results flagged for a closer look

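The change at 7 h differed between shoots and roots by the test of the difference for many genes, and the largest differences, shoots minus roots on the log2 scale, are given here. TBL26 (-6.74, SE 0.24, adjusted p = 1.8e-12), AT1G13650 (-6.50, SE 0.19, adjusted p = 2.5e-13), AT2G27420 (-6.75, SE 0.17, adjusted p = 8.0e-14), AT3G44450 (-6.09, SE 0.21, adjusted p = 1.5e-12) and AT3G28270 (-6.11, SE 0.29, adjusted p = 4.6e-11) were more negative in shoots. In roots these 5 read under 5 on all arrays, light and dark, so a fall there could not have been seen and the difference rests on the shoots. XTH19 (6.28, SE 0.52, adjusted p = 3.3e-08), UGT72E1 (6.18, SE 0.24, adjusted p = 5.4e-12), AT3G12900 (5.80, SE 0.45, adjusted p = 1.4e-08), AT3G16800 (5.49, SE 0.32, adjusted p = 4.7e-10) and AT2G28400 (5.42, SE 0.28, adjusted p = 1.2e-10) were more positive. AT3G12900 fell by 6.30 in roots and read 4.61 and 4.72 in darkened shoots and 5.57 and 4.76 in light shoots, where its change did not pass (-0.50, adjusted p = 0.22), so its difference rests on the roots. AT2G28400 read 10.31 and 10.74 in darkened shoots and 5.75 and 6.51 in light shoots, and 7.41 and 7.51 in darkened roots and 8.54 and 8.41 in light roots.

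Control probe sets outside the tested ones also differed between darkened and light shoots without overlap of the arrays. The 25S ribosomal RNA control differed by 1.96, and the 5 GAPDH controls by -1.14, -1.23, -1.27, -1.37 and -1.25. GAPDH encodes an enzyme of glycolysis, and the 5′, middle and 3′ probe sets of its transcript were all lower in darkened shoots.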

How the results depend on the processing

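The count of 11130 called probe sets between darkened and light shoots stayed within 1.5 times under the low-value filter (10315 of 15129), repeated quantile normalization (11098), median centring (11121), a variance trend (11042), shoot arrays alone (11117), the 4 arrays alone (10746) and, chosen after seeing the data, a fit without submerged arrays (10851). Leaving out an array gave 9946 to 10184. With 1-gene probe sets only the counts were 6006 here, 2079 for 24 h against 7 h of darkness, 6475 for 24 h against light and 4718 for shoots minus roots, since fewer were tested. A 2-fold minimum left 5540, 690, 6361 and 5028 in the same order. Leaving out an array gave 2464 to 2728 for 24 h against 7 h, 10717 to 10953 for 24 h against light and 7839 to 8244 for shoots minus roots. Over 45 pairs of groups the deviations of same-numbered arrays correlated with a median r of -0.009, with 5 pairs over 0.1 and the pair compared here, dark 7 h and light shoots, highest at 0.160. The arrays were taken to share only a number, and with the replicate number as a block the counts were 11102, 4142, 11912 and 8818. Between darkened and light shoots, 0 probe sets called in both fits changed direction under the settings run; this was not examined for the other comparisons. Of the 179 named probe sets none reversed, where a change of sign without a call in either fit was not counted as a reversal. PRK, PRH75, WRKY6, psbN, ndhK and atpI lost their call in 1 or more fits that left out an array. The calls of ndhK and atpI were also lost under the variance trend and with shoot arrays alone, and 14 probe sets were under the 2-fold minimum. The cause was not tested. Values near background limit what falls can show. Darkness, clock time, chamber and watering cannot be told apart at 7 h.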

Other observations

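Some groups were not described above. Of the 3 measured nuclear genes for subunits of the chloroplast NADH dehydrogenase-like complex, 2 were lower in darkened shoots (median -0.80), NdhN most, with a change of -3.65. Among genes of lipid use AIM1, of fatty acid beta-oxidation, rose by 1.17 (SE 0.13, adjusted p = 5.3e-07), and of the acyl-ACP thioesterases FATB rose by 0.77 (SE 0.16, adjusted p = 0.00036) while FaTA fell by 0.73 (SE 0.16, adjusted p = 0.00069). Methionine sulfoxide reductases of the MSRB family held 2 lower and 1 higher of 4 measured members, with changes from -5.11 to 0.37.

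Light replicate 2 stood above light replicate 1 for several stress genes. OPCL1, a jasmonate synthesis gene, read 6.88 and 7.48 in darkened shoots and 7.58 and 9.67 in light shoots. Its fall of 1.44 (SE 0.43, adjusted p = 0.0091) was 0.40 without light replicate 2 (adjusted p = 0.32). LTI30 and WRKY53 read 6.37 and 7.78 and 4.72 and 6.06 in light shoots in the order of the replicates.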
